A study of Mus musculus with 9 samples.

Results

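The genes described here encode the kinase mTOR, the subunits of its complexes and the proteins that set their activity: Mtor, Rptor, Rictor, Mlst8, Deptor, Tsc1, Tsc2, Rheb, Ddit4 and Rps6kb1. They were found by symbol, and all 10 were present among the 24420 rows of the count table and among the 12501 genes that passed the filter on low counts. RNA came from hand-picked islets of female mice, cultured overnight at 5 mM glucose with 10% fetal bovine serum. The KO group held 4 libraries of genotype Rip-cre; Ogt f/f, in which Cre recombinase from an insulin promoter deletes Ogt in beta cells. The WT group held 5 libraries without Cre, of genotype Ogt f/f in replicates 2, 4 and 5 and Ogt f/+ in replicates 1 and 3. Every mouse of both groups thus carried at least 1 floxed Ogt allele, while the transgene was present in KO alone, so the deletion and the transgene cannot be told apart. The labels give no age for the mice and do not state whether each library is a separate animal. The p-values therefore cover only the spread among these libraries, which may be technical.

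mTOR is a serine and threonine kinase that works in a pair of complexes sharing the subunit mLST8. Complex 1 (mTORC1) contains raptor, the product of Rptor, responds to amino acids, energy and growth factors, and drives translation through S6 kinase and the 4E-BP proteins. Complex 2 (mTORC2) contains rictor and phosphorylates Akt, SGK and protein kinase C. The GTPase Rheb switches mTORC1 on, and the TSC1 and TSC2 proteins form the complex that switches Rheb off. In beta cells mTORC1 is known for its role in cell size, cell number and insulin synthesis. These are activities of proteins, and RNA levels do not measure them.

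Sequencing run 1 held KO replicates 1 and 2 and WT replicates 1 to 3, and run 3 held KO replicates 3 and 4 and WT replicates 4 and 5. The labels name the later pool both 2nd Run and Run 3, and it is called run 3 here. Both Ogt f/+ controls were in run 1. A KO to WT difference that changes between the runs therefore cannot be told apart from the genotype of the controls. With the f/f controls alone, WT replicate 2 is the only WT library of run 1. Libraries had between 3796043 and 6073537 counts. The ribosomal RNA gene Rn45s took 28.5% of the counts in WT replicate 2 and 24.3% in WT replicate 5, against 9.62% to 19.4% in the other libraries. Fits without Rn45s and without both of these WT libraries are among the other settings. Ogt, the deleted gene, had 23.7 to 39.3 CPM (counts scaled to a common library size) in KO libraries and 54.1 to 83.0 CPM in WT libraries. The summed level of 15 acinar cell markers, which report exocrine tissue carried along with islets, lay at 2048 and 438 CPM in the KO libraries of run 1 and at 2376, 5796 and 4592 CPM in the WT libraries of run 1. In run 3 it was 102 and 235 CPM in KO and 147 in each WT library. All 15 acinar markers had counts in at least 1 library, and 3 of the 13 tested were called lower in KO. The beta cell markers were abundant in every library, with summed levels of 42465 to 82696 CPM in KO and 47341 to 109749 CPM in WT. In bulk islets, fewer cells of a type and less RNA per cell cannot be told apart, and non-beta cells contribute RNA in both groups. Of 8 beta cell markers 4 were called lower, and of 5 delta and PP cell markers 2 were called higher, with summed levels of 3898 to 5501 CPM in KO and 2975 to 4021 CPM in WT. The fibroblast and stellate, alpha, macrophage and leukocyte, and Schwann lists had 1 marker called higher each. Their median log2 fold changes were 0.56, 0.19, 0.14 and 0.22, against 0.54 for delta and PP. The alpha median was 0.48 within run 1 and −0.14 within run 3. No tested duct or endothelial marker was called, with medians of −0.12 and 0.08. The endothelial median was 0.36 within run 1 and −0.27 within run 3. Of all tested genes 9.56% were called higher and 8.96% lower. The part of the lists other than acinar in the results was not tested. Fits with the mean log2 CPM of the 13 tested acinar markers as a covariate are given beside the calls they change.

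Among the 10 genes, Tsc1 and Rptor were called higher in KO islets, and the other 8 were not called. Over 26 other settings Tsc1 was called in 19 and Rptor in only 4. Tsc1 encodes the scaffold of the complex that inhibits Rheb, and Rptor encodes the subunit that brings substrates to mTORC1. Calls rest on edgeR's quasi-likelihood test with run as a term, at an adjusted p (Benjamini-Hochberg, over all tested genes) under 0.05. In that test 18.5% of all tested genes were called, 9.56% higher and 8.96% lower in KO, so that 2 called of 10 lies near the background. The 10 genes had a median log2 fold change of −0.01, against 0.02 over all tested genes.

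Tsc1 stood at 142, 151, 135 and 126 CPM in KO replicates 1 to 4, against 116, 114, 94.5, 104 and 116 CPM in WT replicates 1 to 5. Every KO library lay above every WT library, in each run and over both together. It was the only one of the 10 genes with groups that did not overlap over both runs, a pattern found in 11.1% of all tested genes. Its mean was 139 ± 10.6 CPM in KO (SD, n = 4) and 109 ± 9.49 CPM in WT (SD, n = 5). The log2 fold change was 0.35 ± 0.09 (SE; 95% interval 0.17 to 0.53, adjusted p = 0.00967). This is a 1.28-fold higher level. Within run 1 the log2 fold change was 0.44 (adjusted p = 0.026 in edgeR's test) and within run 3 it was 0.25 (adjusted p = 0.286). Within run 1 10.4% of all tested genes were called, among them Tsc1 and Rptor, and within run 3 4.32% were, none of the 10 among them. These values take the spread from both runs. With the libraries of run 1 fitted alone neither was called (adjusted p = 0.0627 for Tsc1 and 0.0787 for Rptor). The call of Tsc1 held with any single library left out (adjusted p between 0.00975 and 0.0403 in edgeR's test). It was lost with the f/f controls alone (0.29, adjusted p = 0.0532) and with the acinar covariate, the mean log2 CPM of the tested acinar markers (0.27, adjusted p = 0.0806). The f/f fit keeps WT replicate 2 as the only WT library of run 1, so it is not a check of control genotype alone. The call was also lost when KO replicate 2 and WT replicate 2 were both left out (0.32, adjusted p = 0.054), the libraries with the lowest and the highest summed acinar level of run 1. The part of the acinar markers in the difference was not tested beyond these fits.

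Rptor stood at 81.4, 92.5, 70.9 and 66.0 CPM in KO replicates 1 to 4, against 53.5, 64.1, 69.4, 60.4 and 65.6 CPM in WT replicates 1 to 5. The KO libraries lay above the WT libraries within each run, and KO replicate 4 of run 3 lay below WT replicate 3 of run 1. The mean was 77.7 ± 11.8 CPM in KO (SD, n = 4) and 62.6 ± 6.02 CPM in WT (SD, n = 5). This is a 1.24-fold higher level, or 0.31 ± 0.10 on the log2 scale (SE; 95% interval 0.09 to 0.53, adjusted p = 0.0466). Within run 1 the log2 fold change was 0.48 (adjusted p = 0.0317 in edgeR's test) and within run 3 it was 0.12 (adjusted p = 0.697). The difference between the runs was −0.36 ± 0.19 (SE) and was not called (adjusted p = 0.848). The call was lost without KO replicates 1, 2 or 3 (0.31, 0.23 and 0.33) and without WT replicates 1, 2 or 4 (0.24, 0.30 and 0.32). It was also lost in DESeq2 (0.30, adjusted p = 0.0576) and with the acinar covariate (0.23, adjusted p = 0.242).

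**Figure D1:**
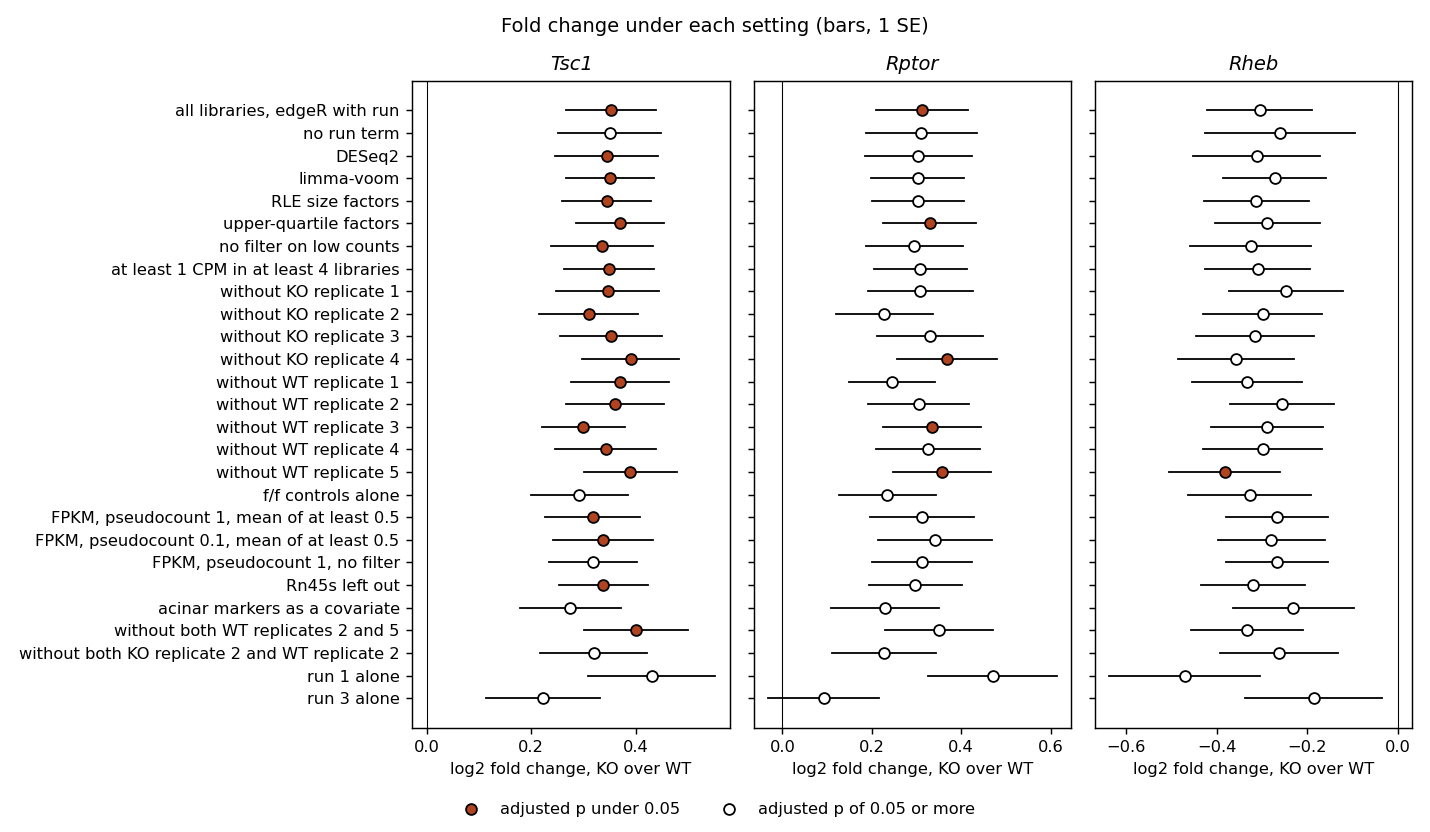
Log2 fold change of Tsc1, Rptor and Rheb, KO over WT, with all libraries in edgeR's test and under 26 other settings. Points are estimates, bars are 1 standard error, and filled points have an adjusted p under 0.05. Tsc1 was called in 19 of the 26 other settings, Rptor in 4 and Rheb in 1, and no point crosses 0.

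The sequences just before the start of the called pair are printed to show how they differ in composition. They are RefSeq sequences of GRCm38.p6, 5′ to 3′ on the strand of the gene, up to the base before the outermost annotated start, with CpG pairs in capitals. The Tsc1 sequence is chr2:28640983-28641227 and the Rptor sequence is chr11:119602655-119602904, both on the plus strand.
Tsc1: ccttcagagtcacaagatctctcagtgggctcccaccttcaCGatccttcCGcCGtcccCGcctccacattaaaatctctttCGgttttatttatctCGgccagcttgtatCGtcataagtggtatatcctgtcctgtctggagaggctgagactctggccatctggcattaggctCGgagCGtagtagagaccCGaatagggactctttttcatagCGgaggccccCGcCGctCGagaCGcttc
Rptor: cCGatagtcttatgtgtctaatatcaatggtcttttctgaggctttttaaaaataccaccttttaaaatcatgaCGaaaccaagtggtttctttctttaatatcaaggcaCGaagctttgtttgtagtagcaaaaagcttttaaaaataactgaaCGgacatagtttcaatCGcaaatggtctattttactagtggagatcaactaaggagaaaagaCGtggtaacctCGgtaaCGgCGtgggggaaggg
Over the 250 bases before the RefSeq start, Rptor had a GC content of 37.6%, with 7.92% of the 32851 mouse promoters lower. Tsc1 had 54.4%, close to the median of all promoters of 52.4%. The other matched genes had between 52.8% (Rps6kb1) and 81.2% (Rictor), and 9 of the 10 genes matched. The windows of all 9 were searched on both strands for the ATF4 and C/EBP composite element TGATGNAA, the E-box CACGTG and the GC box GGGCGG. The composite element, found in 3.45% of all promoters, was in no window of the 9. Rheb held an E-box, which 6.02% of promoters hold, and Mtor, Rictor, Rheb and Ddit4 held a GC box, which 32.7% hold. None of these motifs occurred in the windows of Tsc1 and Rptor.

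The catalytic core did not pass the test. Mtor encodes the kinase itself, on chromosome 4 from 148448611 to 148557683 (GRCm38, mm10). It stood at 124, 117, 89.2 and 99.3 CPM in KO replicates 1 to 4, against 152, 156, 121, 97.9 and 77.9 CPM in WT replicates 1 to 5. The groups overlapped, and the spread followed the run more than the genotype. The log2 fold change was −0.09 ± 0.11 (SE; 95% interval −0.31 to 0.14, adjusted p = 0.616), with −0.25 within run 1 and 0.10 within run 3. Mlst8, which encodes the subunit of both complexes that stabilises the kinase domain, lies on chromosome 17 from 24473551 to 24479078. It had only 30 to 81 counts per library, with 11.8, 12.2, 10.8 and 11.9 CPM in KO and 8.79, 9.72, 13.9, 6.32 and 9.97 CPM in WT. The KO libraries lay close together inside the wider range of WT. Its log2 fold change was 0.31 ± 0.21 (SE; 95% interval −0.14 to 0.76, adjusted p = 0.341), as large as that of Rptor but with a standard error more than that of any other of the 10 except Ddit4. Exons of Bricd5 on the opposite strand cover 22.5% of the Mlst8 exon length, and no source used here says whether the counting used strand, so Mlst8 is uncertain.

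The subunits that tell the complexes apart had differences of the same sign. Rptor, on chromosome 11 from 119602905 to 119899576, is described above. Rictor, which defines mTORC2, lies on chromosome 15 from 6708379 to 6800401 and stood at 68.3, 77.4, 81.4 and 74.7 CPM in KO, against 57.6, 60.2, 56.2, 75.6 and 76.2 CPM in WT. In run 1 the KO libraries lay above the WT libraries, and in run 3 they overlapped. Its log2 fold change of 0.19 ± 0.09 (SE; 95% interval −0.001 to 0.38) was not called (adjusted p = 0.158). Deptor encodes an inhibitor that binds both complexes and lies on chromosome 15 from 55112317 to 55259271. It stood at 211, 196, 169.8 and 169 CPM in KO, against 188, 170.02, 189.96, 213 and 187 CPM in WT. KO libraries were above all WT libraries in run 1 and below them in run 3. Over both runs the log2 fold change was −0.03 ± 0.09 (SE; 95% interval −0.22 to 0.16, adjusted p = 0.876). It was 0.16 within run 1 and −0.24 within run 3, and their difference of −0.40 ± 0.15 (SE) had an unadjusted p of 0.0206 and an adjusted p of 0.795. In the test of a difference between the runs 0 of 12501 genes were called by edgeR, with 744 at an unadjusted p under 0.05 (5.95%).

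**Figure D2:**
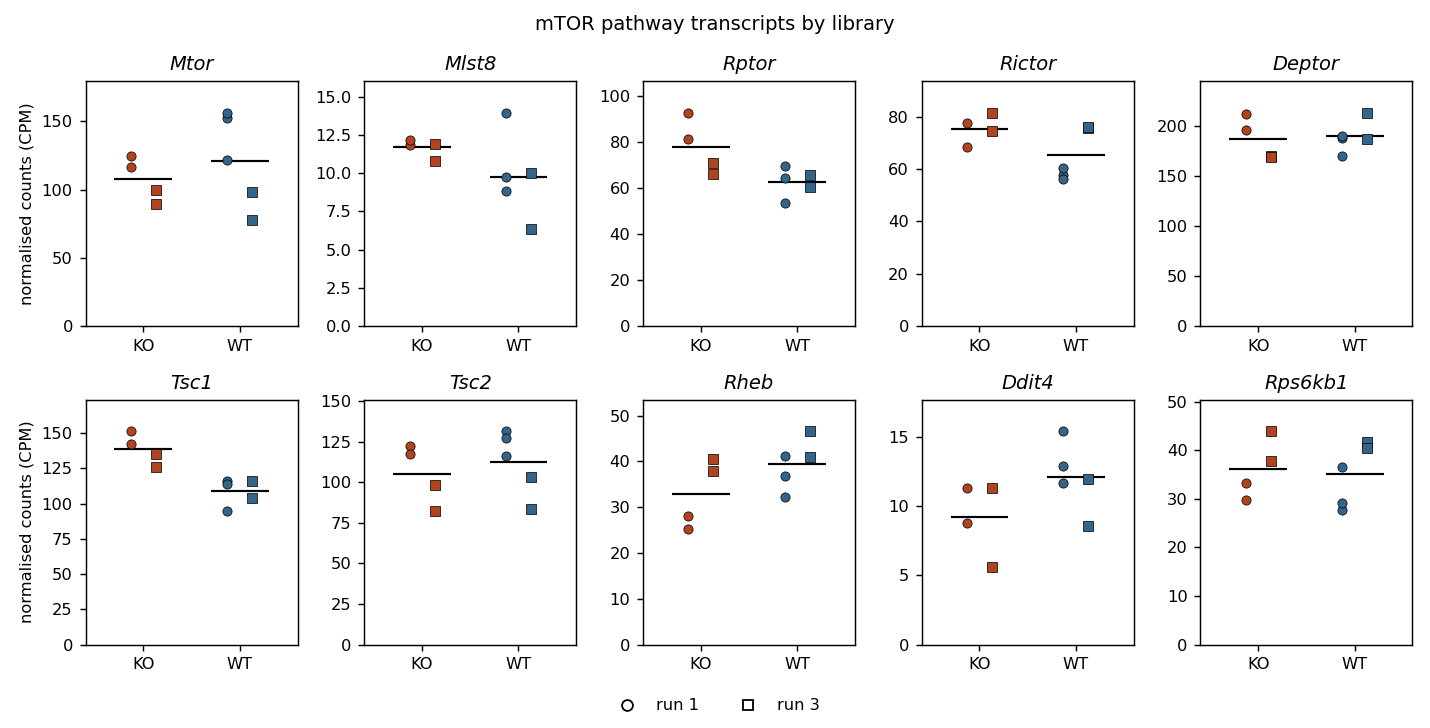
Normalised counts (CPM, TMM-scaled) of the 10 genes in each library, KO left of WT. Circles are run 1, squares are run 3 and bars are group means of 4 KO and 5 WT libraries. The KO points of Tsc1 lie above all WT points, those of Rheb lie below the WT points of the same run, and Mtor and Tsc2 are lower in run 3 in both groups.

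Upstream of mTORC1, Tsc1 rose and its partner Tsc2 was not called. Tsc1 lies on chromosome 2 from 28641228 to 28691167. Tsc2, which encodes the subunit that stimulates GTP hydrolysis by Rheb, lies on chromosome 17 from 24595816 to 24632630. It stood at 123, 118, 82.6 and 98.6 CPM in KO, against 131, 127, 116, 83.6 and 103 CPM in WT. The groups overlapped in both runs, with a log2 fold change of −0.05 ± 0.09 (SE; 95% interval −0.24 to 0.14, adjusted p = 0.744). The ratio of Tsc1 to Tsc2 FPKM within a library was 0.922, 0.993, 1.35 and 1.05 in KO replicates 1 to 4, against 0.689, 0.702, 0.636, 1.03 and 0.886 in WT replicates 1 to 5. It was higher in KO within each run and overlapped between the groups over both runs, and it was not tested. Exons of Pkd1 on the opposite strand cover 7.20% of the Tsc2 exon length. Pkd1 itself was not called (log2 fold change −0.18, adjusted p = 0.304).

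Rheb, the GTPase that activates mTORC1, lies on chromosome 5 from 24802823 to 24842624. It stood at 25.2, 28.0, 37.9 and 40.5 CPM in KO, against 32.2, 41.1, 36.8, 46.5 and 40.9 CPM in WT. The KO libraries lay below the WT libraries of their own run, while those of run 3 overlapped the WT libraries of run 1. Its mean was 32.9 ± 7.44 CPM in KO (SD, n = 4) and 39.5 ± 5.34 CPM in WT (SD, n = 5). The log2 fold change of −0.31 ± 0.12 (SE; 95% interval −0.55 to −0.06) had an unadjusted p of 0.0177 and an adjusted p of 0.0782, so it was not called with all libraries. Without WT replicate 5, the library of run 3 with the highest Rn45s share, it was called (−0.38, adjusted p = 0.0455 in edgeR's test). In the same test Rheb was not called without both WT replicates 2 and 5 (−0.33, adjusted p = 0.102) or with Rn45s left out (−0.32, adjusted p = 0.0658). Tsc1, Rptor and Rheb were the 3 genes of the 10 with groups that did not overlap in the same direction within each run, a pattern of 22.9% of all tested genes. With edgeR's test 0 of the 10 genes were called lower, with 1 (Rheb) at an unadjusted p under 0.05, and DESeq2 and limma-voom also called 0 lower.

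Ddit4, also called REDD1, encodes a stress-induced inhibitor that acts through the TSC complex, and lies on chromosome 10 from 59949669 to 59951834. It had few counts, 36 to 71 per library, and at 1755 bases the shortest exon length of the 10. It stood at 11.3, 8.76, 11.3 and 5.58 CPM in KO, against 12.9, 11.7, 15.4, 8.58 and 11.996 CPM in WT. KO lay below WT in run 1 and overlapped it in run 3. The log2 fold change was −0.36 ± 0.23 (SE; 95% interval −0.84 to 0.13, adjusted p = 0.308), and it was not called. The interval includes both no difference and a fall larger than that estimate. Rps6kb1, which encodes the S6 kinase that mTORC1 activates, lies on chromosome 11 from 86498871 to 86544805. It stood at 29.7, 33.4, 43.9 and 37.7 CPM in KO, against 27.6, 29.1, 36.5, 41.7 and 40.4 CPM in WT. The groups overlapped in both runs, and the log2 fold change was 0.004 ± 0.11 (SE; 95% interval −0.24 to 0.24, adjusted p = 0.985).

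**Figure D3:**
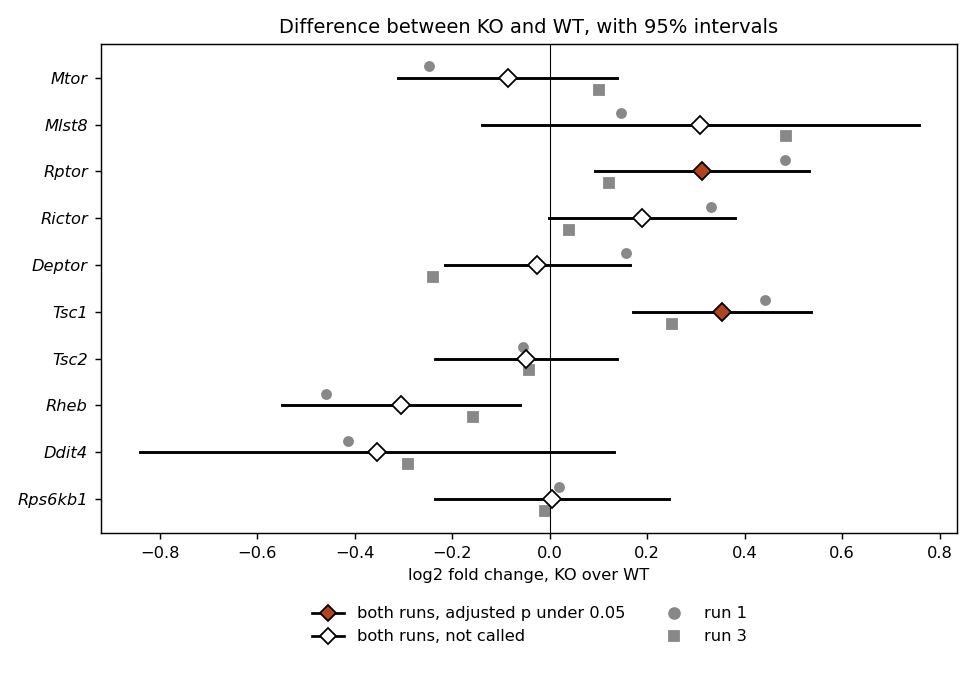
Log2 fold change of each gene, KO over WT, with its 95% interval from edgeR's test of both runs (diamonds and lines) and the values within run 1 (circles) and run 3 (squares). The intervals of Tsc1, Rptor and Rheb do not include 0, only Tsc1 and Rptor were called, and the values of Mtor, Deptor and Rps6kb1 have opposite signs in the runs.

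Of the 10 genes 5 differed between the runs. Run cannot be told apart from mouse cohort, and among WT libraries it goes together with control genotype. The runs also differed in genes with counts, 14485 to 15136 in the libraries of run 1 and 20069 to 21067 in those of run 3. What lies behind the run differences was not tested. In the same model, run 3 was lower than run 1 for Mtor (−0.54 on the log2 scale, adjusted p = 0.00108 in edgeR's test) and Tsc2 (−0.42, adjusted p = 0.002). It was higher for Rheb (0.39, adjusted p = 0.016), Rps6kb1 (0.38, adjusted p = 0.016) and Rictor (0.26, adjusted p = 0.0402). Between the runs 31.4% of all tested genes were called, 15.1% higher and 16.3% lower in run 3. For each of the 5 the estimated run difference was larger in size than the estimated difference between KO and WT.

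Levels of different genes were compared on the authors' FPKM scale, which divides by transcript length. In KO the order of the means was Deptor at 22.02 ± 0.846 FPKM, Rheb at 20.3 ± 5.26, Tsc1 at 16.8 ± 0.542, Tsc2 at 15.9 ± 2.57, Mtor at 11.02 ± 2.11, Rptor at 10.3 ± 1.496, Rictor at 7.54 ± 0.786, Rps6kb1 at 6.12 ± 1.05, Ddit4 at 5.63 ± 1.54 and Mlst8 at 4.82 ± 0.331 FPKM (SD, n = 4). In WT it was Rheb at 23.5 ± 2.83 FPKM, Deptor at 22.4 ± 3.23, Tsc2 at 17.3 ± 2.75, Tsc1 at 13.3 ± 1.39, Mtor at 12.6 ± 3.88, Rptor at 8.18 ± 0.933, Ddit4 at 6.95 ± 1.34, Rictor at 6.397 ± 1.04, Rps6kb1 at 6.25 ± 1.25 and Mlst8 at 3.78 ± 0.566 FPKM (SD, n = 5). Neighbours in these orders had overlapping ranges, except Rptor above Rictor in KO and Rps6kb1 above Mlst8 in WT. Among the tested genes the 10 lay between the 32.4th (Mlst8) and the 79.7th percentile (Deptor) of mean FPKM. Raptor and rictor transcripts stood in a ratio of 1.39 ± 0.28 in KO (SD, n = 4) and 1.31 ± 0.272 in WT (SD, n = 5), with overlapping ranges. The ratio of Mtor to Mlst8 was 2.28 ± 0.342 in KO and 3.36 ± 1.12 in WT, lower in KO within each run, and was not tested. The ratios of Rheb to Tsc1 and of Mtor to Rptor were lower in KO in run 1 and overlapped in run 3. The ratio of Mtor to Deptor was lower in KO in run 1 and higher in KO in run 3. These and the ratio of Tsc1 to Tsc2 are the 6 ratios computed.

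**Figure D4:**
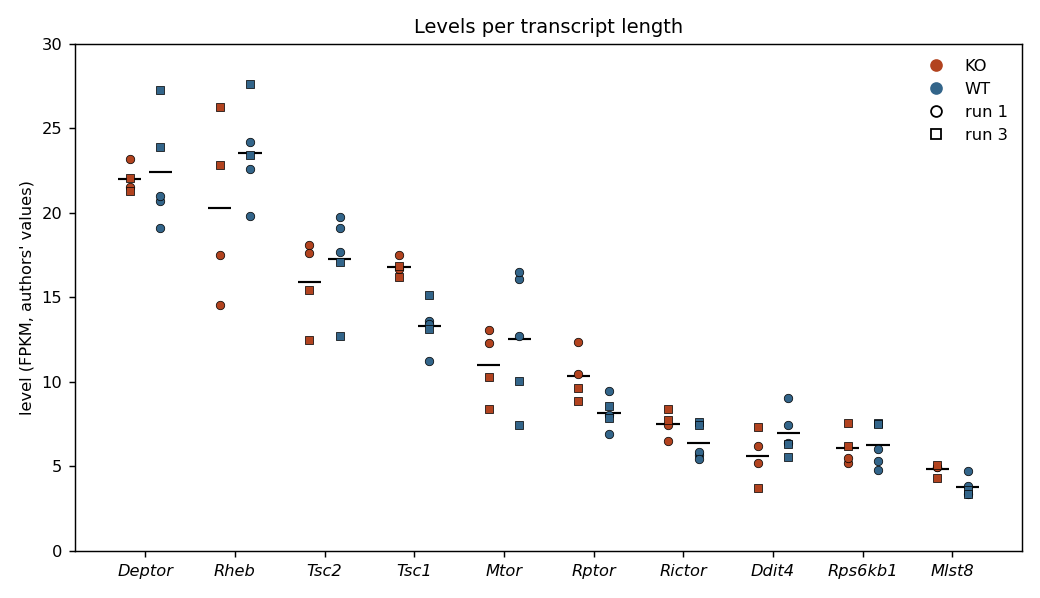
Level of each gene in the authors' FPKM by library, in order of the mean over all libraries, with KO left of WT. Circles are run 1, squares are run 3 and bars are group means. Deptor and Rheb are the most abundant of the 10 at means above 20 FPKM, and Mlst8 is the least abundant at 4.82 FPKM in KO and 3.78 FPKM in WT.

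The genes whose levels followed those of the called pair most closely were found from run-centred log2 CPM over the 9 libraries, among 10952 genes. For Rptor they were Baiap2, an adaptor of the actin cytoskeleton (Pearson r = 0.993), Unc5c, a netrin receptor (r = 0.978), and Dlg5, a scaffold of cell junctions (r = 0.978). For Tsc1 they were Zfp37, a zinc finger protein (r = 0.98), Ric8, a chaperone of G protein subunits (r = 0.979), and Rbfox3, a splicing factor of neurons (r = 0.975). These are the highest of many values over few libraries that share depth and genotype, given as a description.

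Among further subunits, Akt1s1 rose. It encodes PRAS40, a raptor-binding inhibitor of mTORC1 that Akt releases. It stood at 52.9, 36.5, 35.9 and 31.3 CPM in KO, against 28.6, 30.4, 22.6, 19.7 and 26.4 CPM in WT. Every KO library lay above every WT library. In edgeR's test it rose by 0.64 ± 0.14 (SE, log2 scale; adjusted p = 0.00569), and the call held with any single library left out. Of the 6 tested accessory subunits and TSC partners Akt1s1 was the 1 called (16.7%, against 18.5% of all tested genes), and the list's median was −0.06. Mapkap1, which encodes the mTORC2 subunit SIN1, had a log2 fold change of −0.10, and Tbc1d7, the third subunit of the TSC complex, had −0.22.

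Of 29 tested genes of lysosomal nutrient sensing, through which amino acids recruit mTORC1 to the lysosome, 4 fell, 1 rose and 24 were not called. The median log2 fold change was −0.13. Fnip1 and Fnip2, which encode the folliculin partners that act on the Rag GTPases, each fell by 0.44 in log2 terms (adjusted p = 0.00149 and 0.00915). Lars, the leucyl-tRNA synthetase proposed as a leucine sensor, fell by 0.50 (adjusted p = 0.000463). Rragc, one of the Rag GTPases, fell by 0.29 (adjusted p = 0.0481), and this call was lost without KO replicates 1, 2 or 3 (−0.20, −0.30 and −0.30) or WT replicates 1, 2, 3 or 4 (−0.26, −0.27, −0.29 and −0.28). Gatsl2, also called Castor2, a relative of the arginine sensor CASTOR1, rose by 0.42 (adjusted p = 0.014), and this call was lost without KO replicate 1 (0.33), with the acinar covariate (0.36, adjusted p = 0.0736) and on FPKM values (0.41 to 0.42). In run 3 alone Gatsl2 stood at 0.17 (adjusted p = 0.369). Sesn2, the leucine sensor sestrin 2 and a stress gene, was not called (−0.08 ± 0.08 SE, adjusted p = 0.497). In the energy-sensing AMPK and LKB1 list 1 of 11 rose and 1 fell, a called share of 18.2%, near that of all tested genes. Camkk2, a calcium-dependent kinase of AMPK, rose by 0.89 (29.3 CPM in KO and 15.5 CPM in WT, adjusted p = 0.00132). Prkaa2, a catalytic subunit of AMPK, fell by 0.52 (adjusted p = 0.0456), and this call was lost without KO replicates 1, 2 or 3 (−0.52, −0.43 and −0.54) or WT replicates 1, 2, 3 or 4 (−0.56, −0.46, −0.49 and −0.46). With the acinar covariate the calls of Rragc (−0.26, adjusted p = 0.159) and Prkaa2 (−0.36, adjusted p = 0.26) were lost. Over the 26 other settings Gatsl2 was called in 19, Rragc in 8 and Prkaa2 in 8.

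Growth factor signals reach mTORC1 through the insulin and IGF receptors and Akt. Of 18 tested genes from the insulin receptor to Akt, 3 fell, 1 rose and 14 were not called, with a median of −0.10. The called share was 22.2%, against 18.5% of all tested genes. Igf1r, the receptor of insulin-like growth factor 1, stood at 385, 463, 281 and 281 CPM in KO, against 1105, 794, 905, 626 and 544 CPM in WT. All KO libraries lay below all WT libraries, with a log2 fold change of −1.10 ± 0.10 (SE, adjusted p = 3.94e-06). Pik3r2, a regulatory subunit of phosphoinositide 3-kinase, rose by 0.74 (102 CPM in KO and 62.3 CPM in WT, adjusted p = 2.08e-05). Gsk3b, a kinase that Akt inhibits, fell by 0.32 (adjusted p = 0.0146), and this call was lost without KO replicates 1 or 4 or WT replicate 4 (−0.28 in each) or with f/f controls alone (−0.30, adjusted p = 0.0561). Pdpk1, which phosphorylates Akt and S6 kinase, fell by 0.27 (adjusted p = 0.0209), and this call was lost without KO replicates 1 or 4 (−0.26 and −0.23) or with f/f controls alone (−0.27, adjusted p = 0.0695), and on FPKM values (−0.28 to −0.29).

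Of 10 tested kinase substrates of mTORC2, 3 fell, 1 rose and 6 were not called. The called share was 40%, against 18.5% of all tested genes, and was not tested. Sgk2, a serum- and glucocorticoid-regulated kinase, stood at 33.3, 25.6, 26.3 and 30.8 CPM in KO, against 11.97, 16.5, 10.9, 11.3 and 11.8 CPM in WT. All KO libraries lay above all WT libraries, with a log2 fold change of 1.24 ± 0.15 (SE, adjusted p = 7.77e-05). Prkcb, protein kinase C beta, fell by 0.54 (adjusted p = 0.000946). Akt2 fell by 0.34 (adjusted p = 0.0179), and this call was lost without KO replicates 2 or 3 or WT replicate 4 (−0.30, −0.31 and −0.32) or with the acinar covariate (−0.30, adjusted p = 0.0903). It was called in 15 of the 26 other settings, and Akt1 was not called (−0.10, adjusted p = 0.445).

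Of 17 tested translation and growth effectors of mTORC1, 2 rose, 1 fell and 14 were not called. The called share was 17.6%, near the 18.5% of all tested genes. Eif4ebp1, the translation repressor that mTORC1 inactivates, stood at 37.0, 31.6, 21.3 and 21.0 CPM in KO, against 57.2, 63.1, 43.0, 32.2 and 29.7 CPM in WT. KO lay below WT in each run and the groups overlapped over both runs. Its log2 fold change was −0.61 (adjusted p = 0.00305 in edgeR's test). ATF4 is known to drive Eif4ebp1, and this link was not tested here. Lpin1, a phosphatidate phosphatase that mTORC1 keeps out of the nucleus, rose by 0.46 (adjusted p = 0.00547). Eef2k, which inhibits elongation and is inactivated by S6 kinase, rose by 0.48 (adjusted p = 0.0363), and this call was lost when any library other than WT replicate 2 was left out (0.40 to 0.52) or the acinar covariate was added (0.56, adjusted p = 0.0533). It was called in 9 of the 26 other settings. Of 11 tested autophagy and lysosome effectors 1 rose, Wipi2, which acts in autophagosome formation (0.40, adjusted p = 0.00416), and the transcription factor Tfeb was not called (−0.01, adjusted p = 0.987). The called share of this list was 9.09%, below that of all tested genes.

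**Figure D5:**
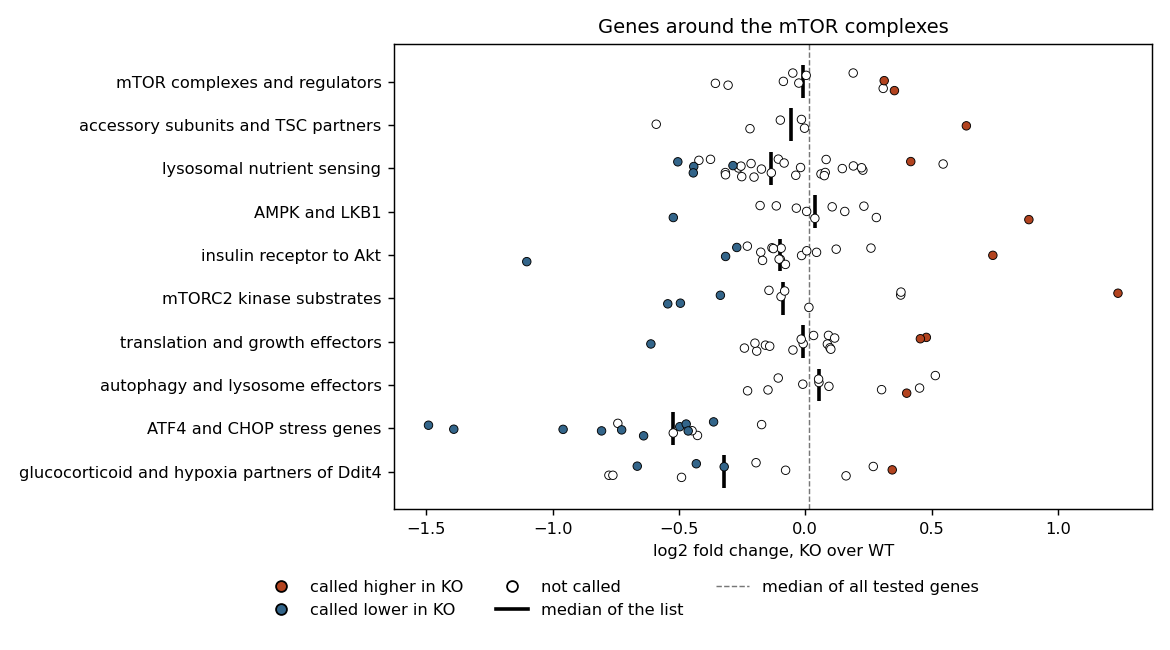
Log2 fold change, KO over WT, of the 10 genes and of 9 lists of genes around them. Each point is a tested gene, filled where called higher (orange) or lower (blue) in KO, thick bars are list medians and the dashed line is the median of all 12501 tested genes. The ATF4 and CHOP list lies lowest with a median of −0.52, while the list of the mTOR complexes and regulators has a median of −0.01.

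Stress genes that share regulators with Ddit4 fell, and Ddit4 itself was not called. Of 15 tested genes of the ATF4 and CHOP response, 10 fell and 5 were not called, with a median log2 fold change of −0.52. The 95% interval of Ddit4, −0.84 to 0.13, includes that median, and a difference between Ddit4 and the list was not tested. The called share of the list was 66.7%, against 18.5% of all tested genes. The fall of these genes was known when the list was drawn up. Atf4 stood at 245, 218, 229 and 254 CPM in KO, against 415, 397, 362, 404 and 374 CPM in WT, with a log2 fold change of −0.73. Trib3, a pseudokinase that inhibits Akt, fell by 1.39 (35.1 CPM in KO and 102 CPM in WT, adjusted p = 3.13e-05). Ddit3, the transcription factor CHOP, fell by 1.49, Atf5 by 0.96 and Slc3a2, a subunit of amino acid transporters that feed mTORC1, by 0.81 (adjusted p between 3.94e-06 and 0.000534). Over 26 other settings between 5 and 13 genes of the list fell and 0 rose, with 9 falls when the acinar covariate was added. Of 11 tested partners of Ddit4 under glucocorticoids and hypoxia, 3 fell, 1 rose and 7 were not called, with a median of −0.32. The called share was 36.4%, against 18.5% of all tested genes, and was not tested. Vegfa, the endothelial growth factor, fell by 0.43 (adjusted p = 0.00245), and the glucocorticoid target Fkbp5 fell by 0.32 (adjusted p = 0.0209), and this call was lost without KO replicate 2 (−0.24), with the acinar covariate (−0.22, adjusted p = 0.169) and with f/f controls alone (−0.32, adjusted p = 0.0622). In run 3 alone Fkbp5 stood at −0.20 (adjusted p = 0.339). Tsc22d3, a glucocorticoid target also called Gilz, fell by 0.67 (adjusted p = 0.0289), and this call was lost without KO replicates 1, 3 or 4 (−0.67, −0.57 and −0.63) or WT replicates 3, 4 or 5 (−0.57, −0.61 and −0.63) or with f/f controls alone (−0.62, adjusted p = 0.104), and it stood at −0.39 in run 1 alone. Per1, a clock gene, rose by 0.34 (adjusted p = 0.0474), a call that held only without KO replicate 3 or WT replicate 4 and was lost when any other library was left out (0.28 to 0.37). Per1 was called in 3 of the 26 other settings and stood at 0.09 in run 3 alone (adjusted p = 0.808). Its call was also lost with the acinar covariate (0.24, adjusted p = 0.252).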

How the data were processed

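Islet RNA was made into libraries with a strand-specific low-input kit, per the labels' protocols. The authors deposited raw read counts per gene symbol (24420 rows) and FPKM values (24347 rows), 1 column per library. FastQC, Bowtie2 2.2.4.0, Cuffdiff 2.2.1, edgeR and the build mm10 are named without roles, per the submitters' processing notes. The sources used here do not say which of them counted the reads, or whether strand was used. The 27 symbols turned into dates were left out.

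Counts were tested with edgeR 4.0.16 (R 4.3.3): TMM scaling, filter by group, quasi-likelihood fit of run and genotype, Benjamini-Hochberg adjustment over 12501 genes at 0.05. CPM use TMM-scaled library sizes. Within-run values and the difference between runs came from a fit of 4 group means. Standard errors came from the fold change and its F statistic. On simulated data the model called 4% of 50 genes at a true log2 fold change of 0.35 and 2% at −0.35. At 1 and −1 it called 84% and 66%. In the simulation 12301 of 12501 genes had no difference, unlike these data, so the shares may not carry over. A gene that was not called may still differ. Replicates of a group and run differed by more than counting noise (chi-square per degree of freedom 3.73 to 36.4). Total counts of 3796043 to 6073537 limit precision for genes at a few CPM. Alternatives included DESeq2 1.42.0, limma-voom 3.58.1 and limma on log2(FPKM + 1), and leaving out each library.

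The genes and lists were chosen with earlier results of these data known. From each list up to 5 called genes with the lowest p were named, or 2 where none was called, besides Ogt, Atf4, Ddit3, Trib3 and Sesn2. For each called gene of the 10, the 3 genes of highest Pearson r were named. Mapkap1, Tbc1d7, Akt1, Tfeb and Pkd1 were added after their values were seen. A gene that the rule named is not reported here. Positions are from GENCODE on GRCm38.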

Additional observations from a re-analysis of the deposited data

Results flagged for a closer look

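Deptor moved in opposite directions in the runs, with each KO library above each WT library in run 1 and below each in run 3. The difference of the log2 fold changes, run 3 minus run 1, was −0.40, and in edgeR's interaction test it was not called (adjusted p = 0.795).

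Sgk2 in WT replicate 2 stood apart at 16.5 CPM, against 10.9 to 11.97 CPM in the other WT libraries and 25.6 to 33.3 CPM in KO. It was 1 flag among 94 groups examined, of which chance flags about 1 in 20.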

How the results depend on the processing

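Of all tested genes 2315 were called with all libraries, 1595 to 2334 without any single library, 672 without the run term, 1538 with only the f/f controls, 1300 on unfiltered FPKM, 1419 with the acinar covariate, 1488 leaving out WT replicates 2 and 5, 1519 leaving out replicate 2 of KO and of WT, 765 in run 1 alone and 964 in run 3 alone. Of the 10 genes 2 were called higher with all libraries and 1 or 2 without any single library. There was 1 in DESeq2, limma-voom, RLE size factors, no filter, the filter of at least 1 CPM, filtered FPKM with either pseudocount, Rn45s left out, or WT replicates 2 and 5 left out. There were 0 without the run term, with f/f controls alone, on unfiltered FPKM, with the acinar covariate, with KO replicate 2 and WT replicate 2 left out, and in each run alone. Called lower were 0, and 0 or 1 without any single library. Tsc1, Rptor, Rictor, Mlst8, Rheb and Ddit4 kept their sign in all 26 settings. Among the 10, signs turned for genes whose value over both runs was close to no change. Mtor stood between −0.19 and −0.029 without any single library and at 0.0034 with KO replicate 2 and WT replicate 2 left out. It stood at −0.26 in run 1 alone and at 0.072 in run 3 alone. Tsc2 stood at 0.0045 without both WT replicates 2 and 5. Deptor stood at 0.15 in run 1 alone, at −0.27 in run 3 alone and between −0.10 and 0.047 without any single library. Rps6kb1 stood at −0.0044 in DESeq2, −0.0012 in limma-voom, −0.0042 with RLE factors, −0.016 with no filter, −0.0013 with the 1 CPM filter, −0.058 on FPKM with pseudocount 1 with or without a filter, −0.065 with pseudocount 0.1, −0.011 with Rn45s left out, −0.032 with the acinar covariate, −0.045 leaving out WT replicates 2 and 5, −0.049 leaving out replicate 2 of KO and of WT, −0.040 in run 3 alone, and between −0.04 and 0.062 without any single library. Dlg5 stood at −0.026 in run 3 alone. The cause of these changes was not tested. No paired analysis was possible because the labels number no replicates: the numbers used here follow accession order and only name the libraries (KO replicate 3 is in run 3 and WT replicate 3 in run 1).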
